A study of Mus musculus with 2 samples.

Results

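The genes described here make, bind, sense and degrade retinoic acid, the active form of vitamin A, and were measured in cells sorted from mouse small intestine that the labels call ILCregs, for regulatory innate lymphoid cells. The 9 listed genes were Stra6 and Rbp2 of vitamin A uptake, Aldh1a1 and Aldh1a2 of synthesis, the receptor genes Rara, Rarb, Rarg and Rxra, and Cyp26b1 of degradation. They were found as features (transcript clusters of the array) that carried exactly 1 gene symbol, equal to a listed name, in the platform annotation. This gave 1 feature each for 8 of the 9 genes, among 28281 named genes and 61344 features in all, and Aldh1a1 was not analysed here. The donors were C57BL/6 mice aged 8 weeks with the IL-10-GFP knockin, a green fluorescent reporter placed in the gene of the cytokine IL-10, and were kept under specific pathogen-free conditions. The series holds 1 group of 2 arrays, replicate 1 and replicate 2, with a stated post-sort purity above 95%. Nothing says whether the arrays came from separate mice or sorts, so their spread may be technical. No other cell population was analysed here, and the sources used here do not give the sorting gates.

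Dietary vitamin A is absorbed in the small intestine, where the cellular retinol-binding protein encoded by Rbp2 carries retinol and retinal inside enterocytes. Retinol is oxidised to retinal by retinol dehydrogenases and retinal to retinoic acid by retinaldehyde dehydrogenases of the Aldh1a family. Retinoic acid binds the retinoic acid receptors RARα, RARβ and RARγ, which act on DNA as heterodimers with retinoid X receptors, and enzymes of the Cyp26 family inactivate it. In the gut, dendritic, epithelial and stromal cells can make retinoic acid, and lymphocytes respond to it, among other ways by expressing the gut-homing receptors CCR9 and integrin α4β7.

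Promoter windows are shown for Rbp2 and Aldh1a2, the listed genes whose signal stood clear of the background on both arrays, and for Rarb, a textbook target of retinoic acid whose signal did not. Each runs 5′ to 3′ from 250 bases before to 50 bases after an annotated transcript start and was taken from RefSeq on GRCm38.p6. Capitals mark the 6-base motifs AGGTCA or AGTTCA or GGGTCA or GGTTCA, sequences of the kind that RAR and RXR bind, on either strand.
Rbp2, chr9:98490287-98490586, plus strand: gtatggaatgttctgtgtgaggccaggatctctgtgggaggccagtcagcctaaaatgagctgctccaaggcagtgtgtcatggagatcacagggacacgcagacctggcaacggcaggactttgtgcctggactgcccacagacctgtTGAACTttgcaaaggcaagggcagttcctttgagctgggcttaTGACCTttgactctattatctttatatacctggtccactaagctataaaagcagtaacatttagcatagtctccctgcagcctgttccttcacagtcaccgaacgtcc
Aldh1a2, chr9:71215539-71215838, plus strand: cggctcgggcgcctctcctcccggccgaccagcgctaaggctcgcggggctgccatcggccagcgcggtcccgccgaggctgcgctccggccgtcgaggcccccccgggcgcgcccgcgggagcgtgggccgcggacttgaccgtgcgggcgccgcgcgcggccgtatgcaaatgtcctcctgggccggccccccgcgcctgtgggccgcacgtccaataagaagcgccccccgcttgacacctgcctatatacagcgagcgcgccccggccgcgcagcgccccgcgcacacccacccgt
Rarb, chr14:16575427-16575726, minus strand: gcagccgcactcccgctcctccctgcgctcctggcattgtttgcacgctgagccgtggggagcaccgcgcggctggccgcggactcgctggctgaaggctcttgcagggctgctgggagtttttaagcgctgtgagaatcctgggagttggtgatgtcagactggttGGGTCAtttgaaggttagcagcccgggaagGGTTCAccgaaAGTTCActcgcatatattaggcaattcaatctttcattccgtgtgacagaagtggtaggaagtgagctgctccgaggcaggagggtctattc

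The Rarb window held 3 such motifs on the strand shown, and 2 of them formed a direct repeat with 5 bases between, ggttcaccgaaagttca, at positions -53 to -37 from the start (chr14:16575513-16575529). This start lies inside the annotated span of Rarb. Pairs in the same orientation with 1, 2 or 5 bases between were searched on both strands in all 16 windows of the 8 measured genes, and the repeat of Rarb was the only one. Over all 32851 promoter windows of the reference, 0.588% held such a pair and 0.0974% held one with 5 bases between. The Rbp2 window held 2 single motifs, both on the opposite strand, starting at positions -101 and -58, and the Aldh1a2 window held none. At least 1 motif was present in 7 of the 16 windows and in 43.7% of all windows. A match describes these letters only and shows neither binding nor its absence.

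Signal is given as deposited, on a scale taken as log2 from its range. To gauge the signal that a feature shows with little or no transcript, the 95th percentile of 1693 olfactory, vomeronasal, taste and trace amine receptor genes (called chemosensory genes here) was used as a threshold on each array. This threshold was 6.74 on the first array and 6.19 on the second, and a gene counted as called where it exceeded both. In all, 31.7% of the 28281 named genes and 38.9% of 16388 protein-coding genes outside the chemosensory set were called. Among the 8 measured retinoic acid genes 2 were called, 2 others exceeded the threshold on the array of replicate 2 alone and 4 on neither. With so few genes and 1 group, a count of 2 in 8 is a description, and no test was possible. The median of the 8 mean signals was 5.92, beside 5.43 over all named genes, 6.06 over the protein-coding genes and 4.47 over the chemosensory set. A gene that was not called could not be told from the signal of these chemosensory genes, which does not show that its transcript is absent. Features differ in probe affinity, so the signals do not rank transcripts of different genes by abundance.

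**Figure D1:**
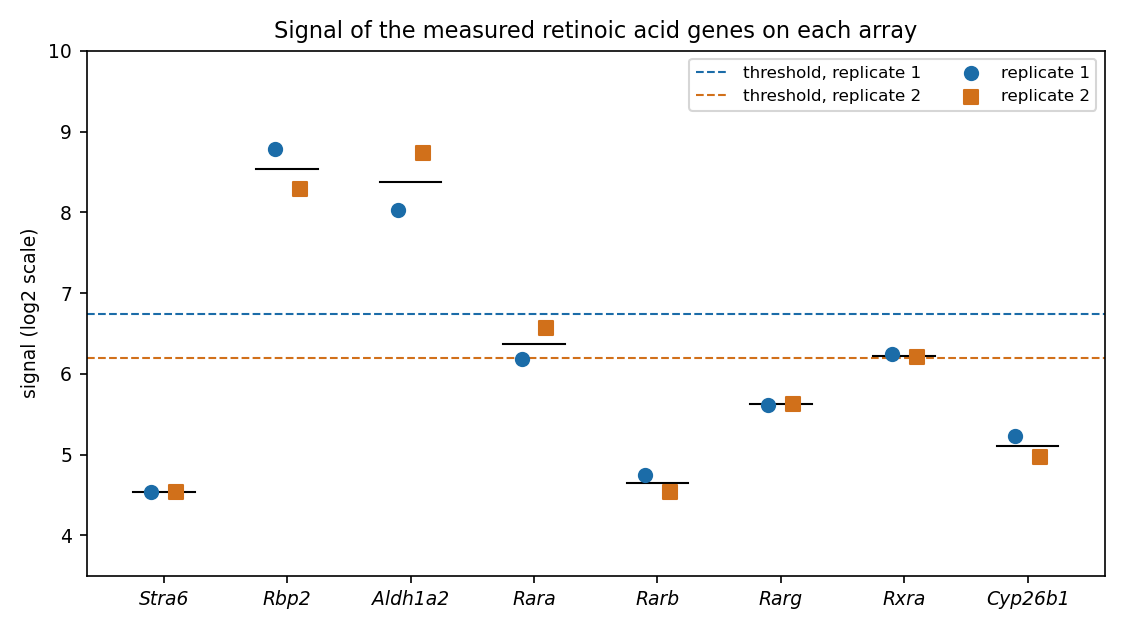
Signal of each measured retinoic acid gene on the array of replicate 1 (circles) and replicate 2 (squares), on the log2 scale, with the mean as a short black line and each array's threshold dashed. Rbp2 and Aldh1a2 lay above both thresholds, Rara and Rxra between or near them, and the other 4 genes below both.

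Of the uptake genes, Rbp2 was called and Stra6 was not. Rbp2 had signals of 8.79 (replicate 1) and 8.29 (replicate 2), a mean of 8.54 ± 0.35 (SD, n = 2). Both values stood clear of the thresholds, by 2.04 and 2.10, and exceeded 99.7% and 99.9% of the chemosensory genes. Stra6, which encodes the membrane receptor that takes up retinol from its plasma carrier, had signals of 4.53 and 4.54. These values lay 2.21 and 1.65 below the thresholds and above 49.4% and 59.4% of the chemosensory genes, so its signal was in the middle of that set.

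Aldh1a2, which encodes the retinaldehyde dehydrogenase RALDH2, was the other called gene. Its signal was 8.02 for replicate 1 and 8.73 for replicate 2, with a mean of 8.38 ± 0.50 (SD, n = 2). The margins over the thresholds were 1.28 and 2.54, and 99.2% and 99.9% of the chemosensory genes lay lower. The spread between its arrays was the widest of the 8 genes, yet the lower of its values still exceeded the higher threshold.

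None of the retinoid receptor genes was called. Rara, encoding RARα, had signals of 6.18 and 6.56 (6.37 ± 0.27, SD, n = 2), 0.56 below the threshold of replicate 1 and 0.37 above that of replicate 2. Rxra, encoding the RXRα partner chain, had 6.24 and 6.21 (6.23 ± 0.018), 0.51 below the threshold of replicate 1 and 0.023 above that of replicate 2. The Rxra values were thus nearly equal on both arrays, while the thresholds differed by 0.55. Of all named genes, 6.92% exceeded only the threshold of replicate 2, whereas 176 genes exceeded only that of replicate 1. Rara and Rxra exceeded 89.96% and 90.9% of the chemosensory genes for replicate 1, and 96.9% and 95.3% for replicate 2.

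Rarg and Rarb lay lower. Rarg, encoding RARγ, had signals of 5.62 and 5.63, above 82.8% and 89.2% of the chemosensory genes but 1.13 and 0.56 below the thresholds. Rarb, encoding RARβ, had 4.75 and 4.54 (4.65 ± 0.15, SD, n = 2) and exceeded 59.5% and 59.6% of the chemosensory genes. Rarb, which carries the direct repeat in the window printed above, was therefore within the bulk of the chemosensory set on both arrays. Of the other RXR genes, Rxrb had 6.23 and 6.31, above the threshold of replicate 2 alone, and Rxrg had 4.52 and 4.42, above neither. In all, 0 of the 6 retinoid receptor genes were called, 3 exceeded the threshold on 1 array and 3 on neither. This stands beside the 38.9% called among protein-coding genes, and a count over 6 genes is a description. With the 90th percentile of the chemosensory genes as the threshold, 2 of the 6 were called.

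Cyp26b1, encoding a cytochrome P450 that oxidises retinoic acid, had signals of 5.23 and 4.97 (5.10 ± 0.19, SD, n = 2). It lay 1.51 and 1.22 below the thresholds and above 75.1% and 76.3% of the chemosensory genes. Its relatives Cyp26a1 and Cyp26c1 were not analysed here. Of the degradation list only 2 of 5 genes were measured, and the other, the glucuronosyltransferase gene Ugt2b34, was called with 7.07 and 7.25. With the 99th percentile of the chemosensory genes as the threshold it was not called.

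**Figure D2:**
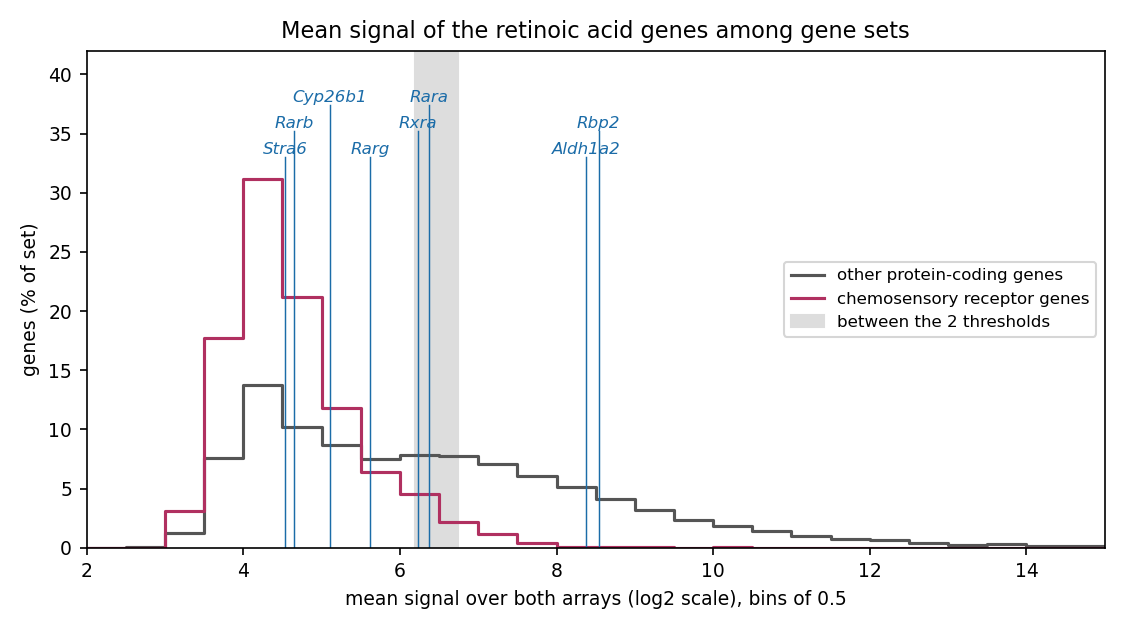
Share of genes in each 0.5-wide bin of mean signal (log2 scale) for the chemosensory receptor genes and for all other protein-coding genes, with the mean of each measured retinoic acid gene as a vertical line. Stra6, Rarb and Cyp26b1 fall where the chemosensory receptor genes are common, whereas Rbp2 and Aldh1a2 fall beyond nearly all of them.

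The rest of the pathway was described from 7 lists. Outside the 8 genes above, 77 of the genes on these lists were measured, of which 39 were called, 4 exceeded the threshold on 1 array and 34 on neither. The called share was 50.6%, and 15 of the 39 were general nuclear receptor coregulator genes. Beside the 38.9% called among protein-coding genes, 6 of 17 measured genes were called in the list of retinol uptake and binding. Besides Rbp2 they included Lrat, whose enzyme esterifies retinol for storage, with 8.58 and 9.07, Cd36, a fatty acid scavenger receptor gene, with 8.37 and 8.79, and the acyltransferase gene Dgat1 with 13.57 and 13.71. The retinoic acid binding protein genes Crabp1 (4.68 ± 0.46, SD, n = 2) and Crabp2 (4.35 ± 0.16) were not called. The median signal of the list was 5.07.

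In the list of retinol and retinal conversion 9 of 24 measured genes were called, with a median of 5.26. Rdh10, encoding a main retinol dehydrogenase of retinoic acid synthesis, had 13.03 and 12.89. Adh1, an alcohol dehydrogenase gene, had 9.81 and 10.11, and Dhrs3, whose enzyme reduces retinal back to retinol, had 10.22 and 10.58. The other 8 measured genes with an Rdh symbol were not called, and the 9 of 24 called genes of the list stand beside the 38.9% called among protein-coding genes. Aldh1a3, a relative of Aldh1a2 that was chosen for mention after its values were seen, had 8.59 and 8.64. Rpe65 of the visual cycle (4.10 ± 0.23) and Adh4 (4.25 ± 0.07) were not called. Rdh14 differed most between the arrays apart from Aldh1a2, with 4.70 and 5.34, and was not called on either.

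Genes that retinoic acid is known to induce in some tissue were divided. Of 16 measured 7 were called, beside 38.9% of protein-coding genes, with a list median of 5.68. Tgm2, encoding a transglutaminase, had 13.04 and 13.25, and Rarres2, encoding the chemoattractant chemerin, had 12.20 and 11.97. Of the gut-homing genes, Itga4, the α4 integrin chain, was called with 9.50 and 10.34 and Itgb7, the β7 chain, with 7.48 and 7.88. Ccr9, the receptor for the small intestinal chemokine CCL25, had 5.96 and 6.58 and exceeded the threshold on the array of replicate 2 alone. The germ cell gene Stra8 (4.10 ± 0.13, SD, n = 2) was not called. This list shares Rarb, Cyp26b1, Stra6, Dhrs3, Lrat, Isx and Crabp2 with the lists above.

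Genes of proteins that work with the retinoid receptors were mostly called. Of 16 measured nuclear receptor coregulator genes 15 were called, with a median signal of 8.64, and the exception was Prame (4.10 ± 0.26, SD, n = 2). The acetyltransferase gene Crebbp had 11.02 and 11.21 and the corepressor gene Nrip1 had 10.54 and 10.43. Of 11 measured genes for receptors that can pair with RXR, 6 were called, with a median of 7.25. Both counts stand beside the 38.9% called among protein-coding genes. The vitamin D receptor gene Vdr had 9.15 and 9.31, the bile acid receptor gene Nr1h4 had 8.07 and 8.66, and the orphan receptor gene Nr4a1 had 14.17 and 14.90. Ppara (5.39 ± 0.02) and Thrb (5.51 ± 0.10) were not called.

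**Figure D3:**
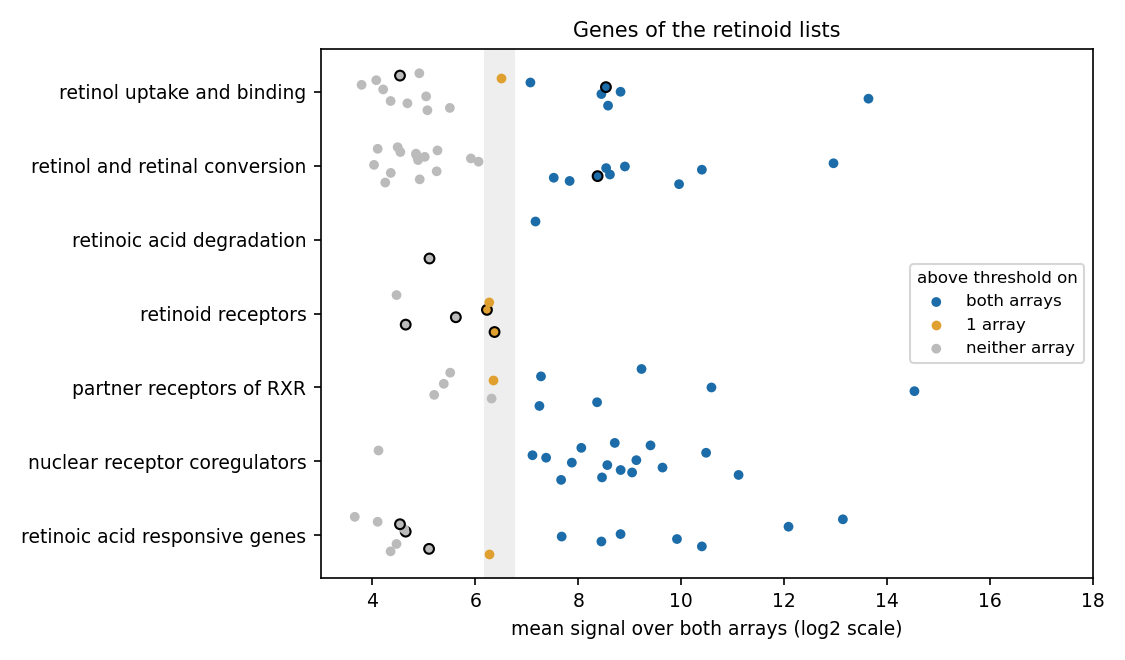
Mean signal over both arrays (log2 scale) of each measured gene of the 7 retinoid lists, coloured by the number of arrays on which it exceeded the threshold, with the 8 measured retinoic acid genes outlined in black and the range between the thresholds shaded. Of the 6 retinoid receptor genes 0 were called and of the 16 coregulator genes 15, beside 38.9% of protein-coding genes outside the chemosensory set.

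The arrays also show markers of cells other than ILCregs, and in bulk RNA fewer cells of a type and less RNA per cell cannot be told apart. Of 10 measured innate lymphoid markers 9 were called, among them Il10 with 10.59 and 11.05, Id2 with 12.23 and 11.93 and the leukocyte antigen gene Ptprc with 12.28 and 12.14, while Thy1 (5.64 ± 0.11, SD, n = 2) was not. Of 12 epithelial markers 11 were called, of 9 stromal markers 8, of 7 macrophage markers all 7, of 11 dendritic cell markers 7, of 5 T cell markers 4, of 7 endothelial markers 4 and of 5 plasma and B cell markers 5. All these counts stand beside the 31.7% called among all named genes and the 38.9% among protein-coding genes. The median signals of the epithelial list were 11.04 and 10.64 and those of the stromal list 12.24 and 13.10, where the matrix gene Dpt was at the highest value of each array. Among the dendritic cell markers, Xcr1 (4.39 ± 0.08), Flt3 (5.14 ± 0.19) and Zbtb46 were not called and Batf3 exceeded the threshold of replicate 2 alone. Clec9a had 7.79 and 7.90, Itgax 9.23 and 8.97 and Ccr7 9.33 and 8.90, and these were called together with Itgae, Irf8, Sirpa and H2-Aa. Which cells gave the Rbp2, Aldh1a2 or receptor signal was not tested.

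The arrays were also compared with each other, gene by gene. The difference is replicate 2 minus replicate 1, relative to the median gene. Its size over the 8 retinoic acid genes ranged from 0.022 for Rxra to 0.76 for Aldh1a2, with a median of 0.19, beside 0.21 over all named genes. The difference was positive for 5 of them and negative for 3. Aldh1a2 differed by 0.76, more than 89.5% of the 1946 genes whose mean signal lay within 0.5 of its own, whose 95th percentile was 0.95. Rbp2 differed by -0.45, more in size than 71.2% of its 1825 neighbours in signal, and Rara by 0.43, more than 71.0% of 3609. Each rests on 1 array against 1, and none went beyond the 95th percentile of its neighbours.

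Marker genes of other cell types differed between the arrays too. Because the difference is relative to the median gene, named genes as a whole lie evenly on both sides of it. The coregulator genes, which are on no marker list, were higher for replicate 2 in 11 of 16 cases, with a median of 0.20. This direction was thus also seen among genes on no marker list, and its cause was not tested. Higher for replicate 2, as Aldh1a2 was, were all 9 measured stromal markers, with a list median of 0.15. Among these Col1a2 was at 1.89 and Col3a1 at 2.08, but Lum was at 0.052. Dpt was set by the ceiling of 19.80 and 19.86, and Dcn, at 0.11, had signals of 19.28 and 19.34 close to it. Also higher for replicate 2 were 8 of 11 dendritic cell markers, with a list median of 0.16, and 5 of 5 plasma and B cell markers (median 0.57, the largest of the marker lists). The same held for 5 of 7 macrophage markers (median 0.39), 4 of 5 T cell markers (median 0.27) and 5 of 7 endothelial markers (median 0.16). Of the innate lymphoid markers 7 of 10 were higher for replicate 2 (median 0.30), with Il7r at 0.85 and Id2 at -0.25. Higher for replicate 1, as Rbp2 was, were 8 of 12 epithelial markers, with Fabp1, the enterocyte fatty acid binding protein gene, at -1.09, Apoa4 at -0.63 and a list median of -0.22. Krt20, a marker of differentiated epithelium, went the other way at 0.81. The part of any of these cell types in the differences of Aldh1a2 and Rbp2 was not tested.

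**Figure D4:**
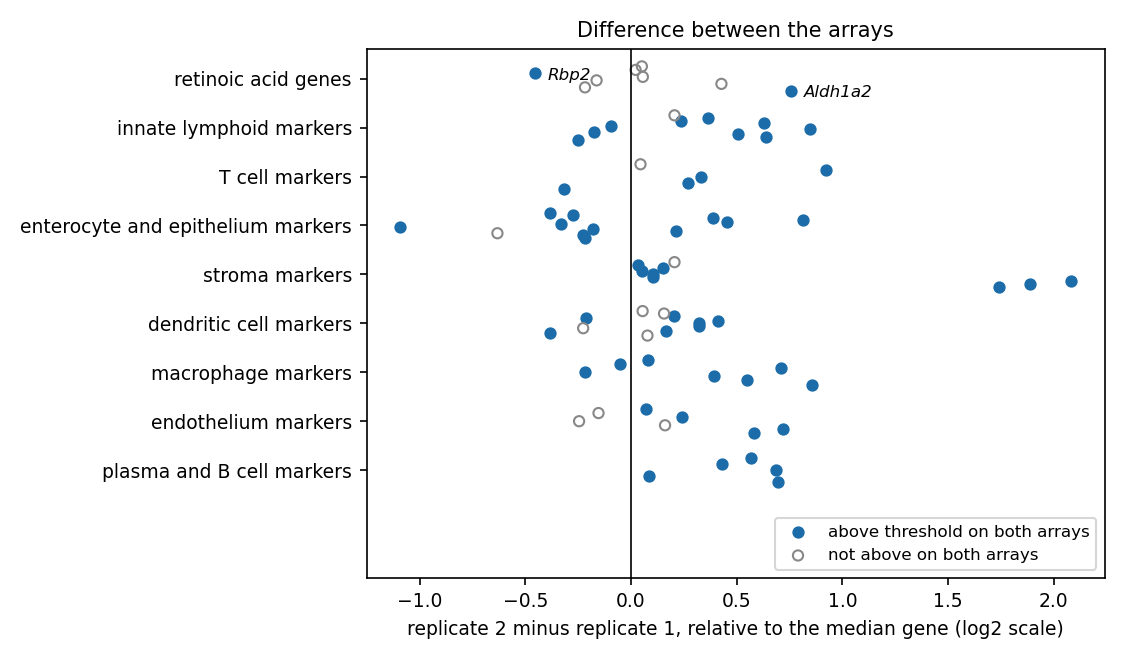
Difference of replicate 2 minus replicate 1 relative to the median gene (log2 scale) for the measured retinoic acid genes and for each list of cell type markers, with 1 point per gene, filled where the gene was called on both arrays. Rbp2 lies at -0.45 and Aldh1a2 at 0.76, and Col1a1, Col1a2 and Col3a1 are the points to the right of 1.5.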

How the data were processed

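RNA of sorted ILCregs was amplified with an Affymetrix whole-transcript kit and hybridised to 2 arrays, per the labels' protocols. The deposited table holds the authors' processed values, 1 per feature and array, from 2.10 to 19.86, and these were taken as log2 signal because of their range. The log base is not stated. MAS5 appears in the submitters' processing notes with no role, and the sources used here do not give the summarization, the scaling or the build. Of 61344 features 28573 carried 1 symbol, 2014 several and 30757 none. Symbols outside the members were updated through Entrez identifiers, which changed 783 features, and 213 genes with several features were represented by that of highest mean signal. Each of the 8 measured members had 1 feature, and 0 features with several symbols named a member. Pearson's r between the arrays was 0.986 across named genes, which are not independent replicates. The highest value of each array is a ceiling, which no member reached.

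With 1 group no test was made and no p-value is given. The precision is limited by the number of arrays. Calls used Python 3.11.15 with pandas 2.3.3 and numpy 2.4.6, and were tested on simulated data. The text names every member and every retinoid receptor and degradation gene measured. Other genes were drawn as examples from the 3 of highest and of lowest mean signal and the 2 that differed most between the arrays in each list. Aldh1a3, Itgb7, Isx, Clec9a, Itgax, Batf3 and Col1a1 fall outside this rule and were named after their values were seen. No gene was named for a pattern like a member's, since 2 arrays of 1 group give no pattern across conditions. The marker lists were only set out by direction between the arrays, beside that of Aldh1a2 or Rbp2. With 2 arrays any gene can take only 1 of 2 directions. The members and lists were chosen with earlier results of these data known. Thresholds at other percentiles, another reference set of genes for the threshold, quantile normalization, the median over features and each array alone were tried. A planned comparison of protein sequences was not run.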

Additional observations from a re-analysis of the deposited data

How the results depend on the processing

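Calls near the threshold depend on where it is set and on the array. Rbp2 and Aldh1a2 were the 2 called members at the 95th and the 99th percentile of the chemosensory genes. They were also the 2 with keratin-associated protein, Rhox and beta defensin genes in their place, and after quantile normalization. The median over features, updated symbols and features of several symbols gave 2 as well, but could not change a member's signal. Each member had 1 feature and kept its symbol, and 0 features with several symbols named a member. At the 90th percentile Rxra was also called, which made 3 members, and the retinoid receptor count was 2 in place of 0. Without replicate 1 or replicate 2 the members called ranged from 2 to 4 and the retinoid receptors from 0 to 3, since Rara, Rxra and Rxrb exceeded the threshold on the array of replicate 2 alone. At the 99th percentile the count of all named genes was 5522 in place of 8965, which is stricter by construction, and the degradation list had 0 in place of 1, the gene lost being Ugt2b34. Without replicate 1 or replicate 2 the count of all named genes was 9141 to 10922. Of 99 recomputed values 94 stayed within 1.5 times the reported count, within 1 SD of a member's signal, or within 1/3 of the median difference between the arrays. That difference was 0.19 as reported, 0.24 when not centred and 0.13 after quantile normalization. The 94 values include each member's signal on 1 array, which lies within 1 SD of the mean by construction and says nothing about stability. The members' signals with the median over features are also among them, and were unchanged by construction. No paired analysis was possible because the series holds 1 group. As depth does not apply to arrays, signal over the chemosensory genes sets the limit. Stra6, Rarb, Rarg and Cyp26b1 could not be told from it on either array, nor Rara and Rxra on the array of replicate 1.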
